A study of Mus musculus with 6 samples.

Results

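Transcript levels of Zfp217 and of 9 genes for its corepressor partners were described in mock and p140Cap TuBo cells. The 10 genes (Zfp217, Ctbp1, Ctbp2, Rcor1, Rcor3, Kdm1a, Hdac1, Hdac2, Kdm5b and Phf21a) were found by symbol among 21960 genes in the deposited counts, and all 10 had enough reads to be among the 11800 genes tested. Zfp217 was chosen on its measured level, which was much higher in these p140Cap libraries, so its values are given as a description without a test. The partners were picked for what their proteins are known to bind, and their levels in the same libraries were tested.

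Zfp217, the mouse gene of human ZNF217, encodes a zinc finger protein that binds DNA and brings corepressors to its target genes. CtBP proteins bridge such factors to a complex in which a CoREST scaffold (Rcor genes) joins the histone deacetylases HDAC1 and HDAC2 to the demethylase LSD1 (Kdm1a), which removes methyl groups from lysine 4 of histone H3. The demethylase KDM5B and the histone reader PHF21A are further partners, and human ZNF217 lies in a chromosome region that is often amplified in breast cancer.

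TuBo is an epithelial line derived from a tumor of the mammary gland in a BALB/c-MMTV-NeuT mouse, in which the mammary tumor virus promoter drives an activated rat neu (Erbb2) oncogene, and both groups carry this transgene. The p140Cap cells also received a p140Cap cDNA by retrovirus (pBabe-puro), were selected with puromycin, grown as clones from single cells and then pooled. Mock cells are the control population, which the labels call wt. Each group had 3 libraries of poly(A) RNA from cells in culture, and the comparison asks which transcripts differ between p140Cap and mock cells. The paper describes cloning for the p140Cap cells only. Effects of p140Cap and of the choice of clones therefore cannot be told apart here. The series' design text speaks of mice, whereas the sample labels describe a cell line, and the samples were read here as cell cultures. Nothing in the sources says how far apart the cultures were grown, so p-values measure the spread between these libraries, which may be technical.

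Levels are given in CPM, the reads of a gene scaled to library size with TMM factors. Mock libraries held between 33058719 and 75506562 reads on genes and p140Cap libraries between 13770385 and 15364850, so every mock library was deeper, with a ratio of medians of 2.62. Srcin1, which encodes p140Cap, was at 15 ± 1.96 CPM (SD, n = 3) in mock and at 2343 ± 153 CPM (SD, n = 3) in p140Cap libraries, which fits the labels. Differences between the groups were widespread: 71.1% of the genes tested differed at an adjusted p under 0.05, 35.2% being higher and 35.9% lower in p140Cap cells. Over all genes tested, log2 fold changes had a median of -0.00154. Epithelial markers summed to between 5111 and 5484 CPM in mock and between 5969 and 6139 CPM in p140Cap libraries, with 3 of 6 tested markers higher and 1 lower. Leukocyte markers summed to between 2.09 and 2.37 CPM in mock and between 3.31 and 4.22 CPM in p140Cap libraries, fibroblast markers to between 9.97 and 10.5 against between 11.3 and 14.1 CPM, and endothelial markers to between 0.270 and 0.528 against between 0.613 and 0.923 CPM. Ptprc, Cd3e, Dcn, Col1a2 and Kdr, which mark these other cell types, had 0 reads in all 6 libraries. Of the 5 markers per list, 1 leukocyte, 2 fibroblast and 1 endothelial marker had enough reads for a test. Cd68, Col1a1 and Pecam1 were higher in p140Cap cells and Pdgfra was not called, beside 71.1% called among all genes tested. The part of these low signals in the results was not tested. In bulk RNA, a smaller number of expressing cells and less RNA per cell cannot be told apart.

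Zfp217 (ENSMUSG00000052056, chr2:170108643-170151677 of GRCm38.p6, minus strand) was covered by 5785, 2963 and 2579 reads in mock and by 26715, 25484 and 23615 in p140Cap libraries. The normalized values were 75.6, 74.5 and 77.4 CPM in mock and 1761, 1736 and 1734 CPM in p140Cap cells. The groups lay far apart and each was tight, with means of 75.8 ± 1.49 and 1744 ± 14.8 CPM (SD, n = 3 each). The log2 fold change was 4.52 (SE 0.05), a 23.0-fold difference, and the ratio over the 9 pairs of a p140Cap and a mock library ran from 22.4 to 23.6. Ordered by log2 fold change, Zfp217 stood at position 7 of 11800 genes. Its share of the reads on tested genes went from 0.00767% to 0.172%. The annotation places 2 genes of unknown role (Gm75286 and Gm75318) across Zfp217 on the other strand, and no source used here says whether reads were counted by strand.

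For Zfp217, the promoter sequences used here (RefSeq, GRCm38.p6) cover 2 transcription starts inside the annotated span of the gene, which reaches further upstream, and any other start is not shown. The 250 bases before each are printed because the rise was a rise in transcript level and the counts do not say which start was used. Sequences run 5′ to 3′ toward the start on the gene's strand. Capitals mark matches, on either strand, to 6 motifs. The GC box was searched as GGGCGG, which reads CCGCCC on the other strand. The CCAAT box was searched by the letters of its name, which read ATTGG on the other strand. The E-box was searched as CACGTG, the TCF/LEF element as ATCAAAG and the TATA box as TATAAA. The last motif, TGCAGAA, is a form of the element described for ZNF217 itself. No 2 motifs share letters within a match shown here.
Zfp217 start 1, chr2:170142676-170142925, minus strand: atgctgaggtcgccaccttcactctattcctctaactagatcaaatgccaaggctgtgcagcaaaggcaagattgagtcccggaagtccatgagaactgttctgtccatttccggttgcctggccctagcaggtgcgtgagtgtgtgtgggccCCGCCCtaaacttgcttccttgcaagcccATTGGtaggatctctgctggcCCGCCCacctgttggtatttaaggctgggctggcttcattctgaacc
Zfp217 start 2, chr2:170131221-170131470, minus strand: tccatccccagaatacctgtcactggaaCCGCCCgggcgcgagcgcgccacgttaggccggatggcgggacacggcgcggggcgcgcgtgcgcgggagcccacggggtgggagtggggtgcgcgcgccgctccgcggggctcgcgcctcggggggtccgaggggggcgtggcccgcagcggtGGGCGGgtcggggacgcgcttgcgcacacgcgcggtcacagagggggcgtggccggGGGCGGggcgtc
The first window was 54.4% G or C with 6 CpG dinucleotides, and held GC boxes at 97 and 47 bases and a CCAAT box at 68 bases before the start. The second window was 80.0% G or C with 43 CpG dinucleotides and held 3 GC boxes, at 222, 68 and 12 bases before the start. Neither window held a match to the other 4 motifs, which says only that these letters are not in these 250 bases.

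A promoter was on record for 9 of the 10 genes (12 starts), and Hdac1 had none. GC boxes were in 8 of the 12 windows, from 7 genes, against 32.7% of 32851 mouse promoter windows of the same length. A CCAAT box was in 5 of the 12 windows, from 4 genes, against 33.8% of all windows. The ZNF217 element was in 1 window (of Ctbp2) and in 4.87% of all, and a TATA box in 2 windows (of Phf21a and Ctbp2) and in 12.4% of all. The E-box and TCF/LEF letters were in none of the 12 windows and in 6.02% and 3.21% of all. The windows of these genes were between 30.8% and 82.8% G or C (median 64.0%, against 52.4% for all windows) and held between 0 and 43 CpG dinucleotides (median 23, against 6). These matches are descriptions of letters and were not tested as sites.

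**Figure D1:**
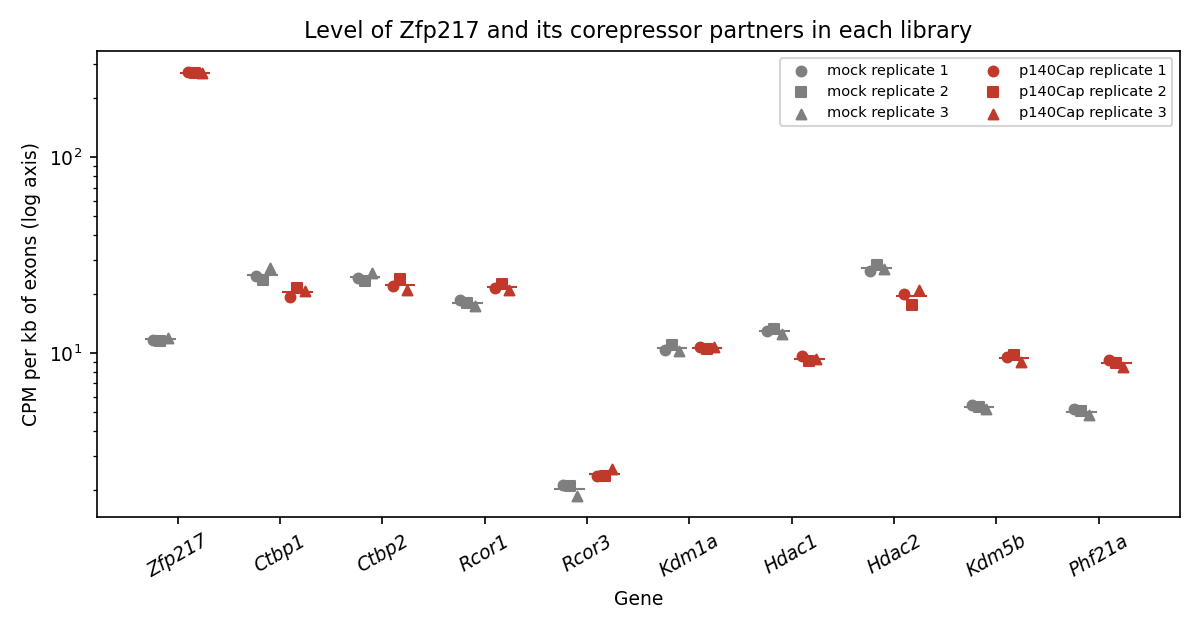
Normalized level (CPM per kb of exons, log axis) of Zfp217 and its 9 partners in each library, with mock and p140Cap libraries as separate points. Zfp217 moved from 11.7 to 270 CPM per kb on average, while each partner stayed within a 1.78-fold change.

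The partners did not move together. Of the 9, 4 were higher in p140Cap cells (Kdm5b, Phf21a, Rcor1 and Rcor3), 4 were lower (Hdac1, Hdac2, Ctbp1 and Ctbp2) and Kdm1a did not pass the test. These 8 of 9 calls stand beside 71.1% of all genes tested, and the 4 in each direction beside 35.2% higher and 35.9% lower. The values of the groups did not overlap for 7 of the 9, against 73.4% of all genes tested. Log2 fold changes ran from -0.46 to 0.83 with a median of 0.01. Added up, the partners took between 952 and 971 CPM in mock and between 980 and 1007 CPM in p140Cap libraries, so their sum differed far less than Kdm5b and Phf21a did.

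**Figure D2:**
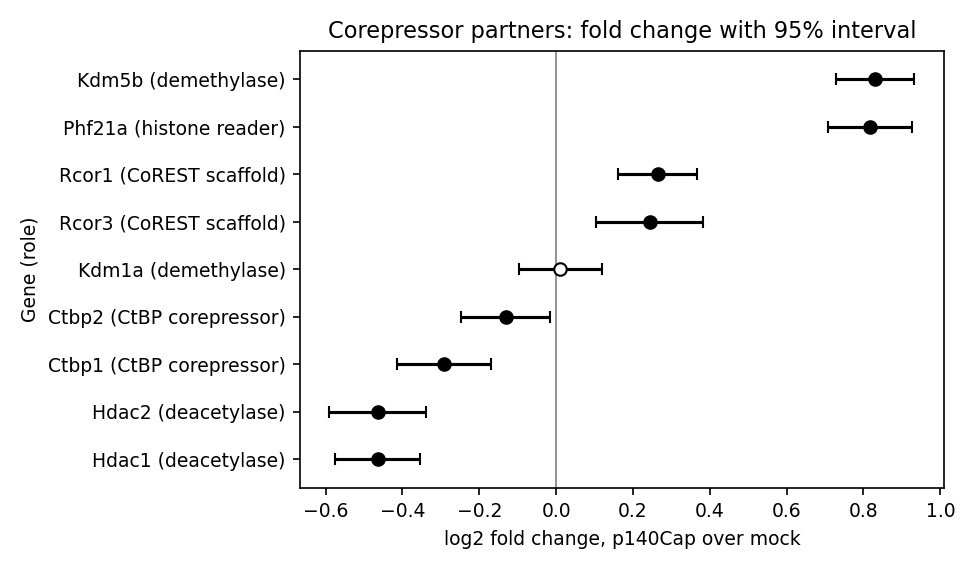
Log2 fold change, p140Cap over mock, of each partner, with its 95% interval (the open point did not pass the test). Kdm5b and Phf21a sit near 0.8, the Rcor genes near 0.25, Kdm1a at 0.01, and the Hdac genes at -0.46.

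Ctbp1 and Ctbp2 encode the CtBP proteins, which bind a short peptide in factors such as ZNF217 and carry the rest of the complex. Ctbp1 (ENSMUSG00000037373, chr5:33247723-33275004, minus strand) was at 213, 203 and 235 CPM in mock and at 167, 185 and 179 CPM in p140Cap libraries. Every p140Cap library was below every mock library. Ctbp1 fell by 0.29 in log2 units (SE 0.06, adjusted p = 0.00026, by the quasi-likelihood test of edgeR, Benjamini-Hochberg adjusted). Ctbp2 (ENSMUSG00000030970, chr7:132986998-133124009, minus strand) was at 151, 146 and 160 CPM in mock and at 136, 148 and 131 CPM in p140Cap libraries. Here the groups overlapped, since the highest p140Cap library lay above the lowest mock library. The log2 fold change of Ctbp2 was -0.13 (95% interval -0.25 to -0.02, adjusted p = 0.0402, by the quasi-likelihood test of edgeR, Benjamini-Hochberg adjusted), and this call was lost in 6 of 13 alternatives, among them leaving out mock library 1 or 3 or p140Cap library 1 or 3 (adjusted p between 0.0703 and 0.184, edgeR). Annotated transcripts of Fgfr2 and B930086L07Rik overlap Ctbp2 on its strand.

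Rcor1 and Rcor3 encode CoREST scaffolds, which hold LSD1 and a deacetylase together, and both rose by a similar step. Rcor1 (ENSMUSG00000037896, chr12:111039367-111115902, plus strand) was at 151, 147 and 141 CPM in mock and at 175, 183 and 170 CPM in p140Cap libraries. Rcor3 (ENSMUSG00000037395, chr1:192098546-192138074, minus strand) was at 32.0, 31.6 and 28.1 CPM in mock and at 35.2, 35.5 and 38.3 CPM in p140Cap libraries. For both genes the lowest p140Cap library lay above the highest mock library. The log2 fold changes were 0.26 for Rcor1 (SE 0.05, adjusted p = 0.000123) and 0.24 for Rcor3 (SE 0.07, adjusted p = 0.00331, by the quasi-likelihood test of edgeR, Benjamini-Hochberg adjusted for both). A stretch of 667 bases of Rcor3 transcripts is shared, on the other strand, with the annotated gene Gm26879.

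Kdm1a encodes LSD1, the catalytic centre of the complex. Kdm1a (ENSMUSG00000036940, chr4:136550533-136602787, minus strand) was at 58.2, 61.9 and 57.4 CPM in mock and at 60.0, 58.9 and 59.9 CPM in p140Cap libraries. All 3 p140Cap values lay within the range of the mock values. The log2 fold change was 0.01, with a 95% interval of -0.10 to 0.12 (adjusted p = 0.853, by the quasi-likelihood test of edgeR, Benjamini-Hochberg adjusted), so a change beyond 0.12 in either direction lay outside the interval. Kdm1a and Luzp1 share 508 transcript bases on opposite strands.

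Kdm5b and Phf21a had the largest differences among the partners. Kdm5b encodes a demethylase that removes methyl groups from trimethylated lysine 4 of histone H3, and PHF21A (BHC80) binds unmethylated lysine 4, the state that LSD1 leaves. Kdm5b (ENSMUSG00000042207, chr1:134560178-134632878, plus strand) was at 90.5, 88.0 and 86.4 CPM in mock and at 159, 163 and 150 CPM in p140Cap libraries. Phf21a (ENSMUSG00000058318, chr2:92183751-92364667, plus strand) was at 52.3, 50.9 and 48.9 CPM in mock and at 93.1, 89.6 and 85.7 CPM in p140Cap libraries. All p140Cap libraries were well above all mock libraries for both genes. Kdm5b rose 1.78-fold (log2 fold change 0.83, SE 0.05, adjusted p = 2.22e-10) and Phf21a 1.76-fold (log2 fold change 0.82, SE 0.05, adjusted p = 6.38e-10, by the quasi-likelihood test of edgeR, Benjamini-Hochberg adjusted for both). Among all genes tested, 14.2% differed by at least as much as Kdm5b in either direction. Promoter windows of both are shown because these genes rose by like amounts.
Kdm5b start 1, chr1:134559928-134560177, plus strand: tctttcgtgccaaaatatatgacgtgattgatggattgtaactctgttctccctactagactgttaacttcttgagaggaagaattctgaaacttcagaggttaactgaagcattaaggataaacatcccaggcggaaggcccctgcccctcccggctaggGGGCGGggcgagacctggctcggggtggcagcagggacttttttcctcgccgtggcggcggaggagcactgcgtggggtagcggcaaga
Phf21a start 1, chr2:92185233-92185482, plus strand: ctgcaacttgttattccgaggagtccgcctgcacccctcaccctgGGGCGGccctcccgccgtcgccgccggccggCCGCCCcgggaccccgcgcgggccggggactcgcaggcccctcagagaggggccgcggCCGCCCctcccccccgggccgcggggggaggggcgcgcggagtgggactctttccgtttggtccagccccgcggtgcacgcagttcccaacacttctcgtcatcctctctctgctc
The Kdm5b window was 54.4% G or C and held 1 GC box, at 89 bases before the start. The first Phf21a window was 75.6% G or C and held 3, at 205, 174 and 116 bases before the start. A second Phf21a start, whose window is not printed, had 30.8% G or C, 0 CpG dinucleotides, no GC box and a TATA box at 57 bases before the start, and the counts do not say which start was used.

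Hdac1 and Hdac2 encode the deacetylases of the complex, and both fell by 0.46 on the log2 scale. Hdac2 (ENSMUSG00000019777, chr10:36974297-37001889, plus strand) was at 152, 163 and 156 CPM in mock and at 117, 102 and 122 CPM in p140Cap libraries (SE of the log2 fold change 0.06, adjusted p = 2.76e-06, by the quasi-likelihood test of edgeR, Benjamini-Hochberg adjusted). Hdac1 (ENSMUSG00000028800, chr4:129516104-129542646, minus strand) was at 60.7, 61.8 and 58.6 CPM in mock and at 45.0, 42.7 and 43.5 CPM in p140Cap libraries (SE 0.05, adjusted p = 6.2e-07, same test). For both genes every p140Cap library lay below every mock library. The Hdac1 value is uncertain because the counts also hold Gm10093, a processed pseudogene with 99.4% identity to Hdac1 over 1444 bases, whose reads came to between 49.2% and 57.4% of those on Hdac1 in each library. Another annotated gene, Gm5824, is 96.3% identical to Hdac1 over 1450 bases, and its part in the Hdac1 value was not tested. Gm10093 itself was at 31.0 ± 0.586 CPM in mock and 23.9 ± 1.72 CPM in p140Cap libraries (SD, n = 3 each), a log2 fold change of -0.37. With the reads of Hdac1 and Gm10093 added together, an alternative chosen after seeing the data, the log2 fold change was -0.43 (adjusted p = 7.35e-07, by the quasi-likelihood test of edgeR, Benjamini-Hochberg adjusted). The Hdac2 promoter window is shown as that of a partner that fell.
Hdac2 start 1, chr10:36974294-36974543, plus strand: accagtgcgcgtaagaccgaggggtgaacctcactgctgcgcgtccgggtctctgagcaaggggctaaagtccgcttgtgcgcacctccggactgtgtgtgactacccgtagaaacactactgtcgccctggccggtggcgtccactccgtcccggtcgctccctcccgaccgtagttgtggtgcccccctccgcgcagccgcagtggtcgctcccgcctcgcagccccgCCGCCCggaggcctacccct
It was 68.8% G or C with 27 CpG dinucleotides and held 1 GC box, at 20 bases before the start.

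Since the pairs Ctbp1 and Ctbp2, Hdac1 and Hdac2, and Rcor1 and Rcor3 encode related proteins that can stand in the same place in a complex, the ratio within each pair was compared in an exact two-sided permutation test over the libraries, in which 3 against 3 cannot give a p below 0.1. The log2 ratio of Ctbp2 to Ctbp1 was -0.50, -0.48 and -0.56 in mock and -0.30, -0.32 and -0.45 in p140Cap libraries. The p140Cap values were all above the mock values, with a difference of 0.16 (exact permutation p = 0.1, the smallest possible), from 0.701 to 0.782 reads of Ctbp2 per read of Ctbp1. The log2 ratio of Hdac2 to Hdac1 was 1.32, 1.39 and 1.42 in mock and 1.37, 1.26 and 1.49 in p140Cap libraries (difference -0.00324, exact permutation p = 1). The log2 ratio of Rcor3 to Rcor1 was -2.24, -2.22 and -2.33 in mock and -2.31, -2.36 and -2.15 in p140Cap libraries (difference -0.01, exact permutation p = 0.9). In the Hdac and Rcor pairs the groups overlapped, so the difference was not larger than the spread between libraries.

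**Figure D3:**
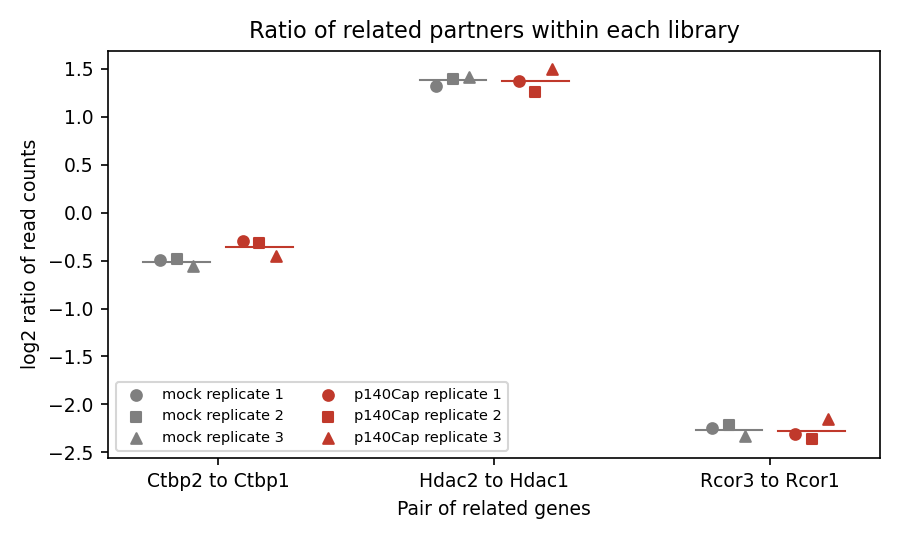
Log2 ratio of the reads of 2 related partners in each library, by group. The Ctbp2 to Ctbp1 values of the groups are apart (means -0.51 in mock and -0.35 in p140Cap), and those of the other pairs overlap.

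To compare genes with each other, levels were divided by the length of each gene's exons (CPM per kb). In mock cells the order was Hdac2 (27.1 CPM per kb), Ctbp1 (25.1), Ctbp2 (24.4), Rcor1 (18.1), Hdac1 (12.9), Zfp217 (11.7), Kdm1a (10.6), Kdm5b (5.32), Phf21a (5.03) and Rcor3 (2.03). The ranges of neighbours overlapped among Hdac2, Ctbp1 and Ctbp2 and were apart below these. In p140Cap cells Zfp217 came first, at 270.0 CPM per kb, followed by Ctbp2 (22.3 CPM per kb), Rcor1 (21.7), Ctbp1 (20.5) and Hdac2 (19.6), each overlapping the next. Then came Kdm1a (10.6 CPM per kb), Kdm5b (9.46), Hdac1 (9.36), Phf21a (8.87) and Rcor3 (2.42), with overlap from Kdm5b to Phf21a. Among the 11758 tested genes with an exon length, Zfp217 moved from position 3312 to position 88. Exon lengths are the union over all annotated transcripts, so a gene with long rare exons is placed too low.

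Other subunits of LSD1, CoREST and CtBP assemblies were counted next, in lists written for these pathways. Of 15 such genes, 7 were higher and 2 lower in p140Cap cells and 6 did not pass the test (60.0% called, against 71.1% of all genes), and the median log2 fold change was 0.12. Zfp516, whose human protein binds CtBP and LSD1, rose from 59.1 ± 3.45 to 93.7 ± 4.98 CPM (log2 fold change 0.66, SE 0.06, adjusted p = 2.4e-08). Zmym3, a zinc finger subunit, rose from 83.2 ± 2.49 to 132 ± 5.37 CPM (log2 fold change 0.66, SE 0.05, adjusted p = 4.43e-09). These values are means ± SD of n = 3 libraries each, and adjusted p-values here and in the next paragraphs come from edgeR's quasi-likelihood test over all genes. Gse1, Kdm5a, Ehmt2 and Kdm5c were also higher, by 0.25 to 0.44. The 2 that fell were Cdyl (log2 fold change -0.31) and Kdm1b (log2 fold change -0.18), a relative of Kdm1a, which lost its call without mock library 1 (adjusted p = 0.0694, edgeR) or p140Cap library 1 (adjusted p = 0.0655, edgeR). Rcor2, the remaining CoREST scaffold gene, was not called (95% interval -0.43 to 0.11).

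HDAC1 and HDAC2 also work in the NuRD, SIN3, MIER and MiDAC complexes. Of 28 genes for these, 9 were higher, 10 lower and 9 not called (67.9% called, against 71.1% of all genes), with a median of -0.01. Brms1 and Brms1l, related subunits of the SIN3 complex, fell from 34.1 ± 2.34 to 18.9 ± 1.26 CPM and from 28.8 ± 0.824 to 17.3 ± 0.324 CPM (SD, n = 3 each), with log2 fold changes of -0.85 (SE 0.07, adjusted p = 2.69e-08, edgeR) and -0.73 (SE 0.07, adjusted p = 3.72e-08, edgeR). Mta2 of NuRD fell from 224 ± 1.0 to 161 ± 2.76 CPM (SD, n = 3 each, log2 fold change -0.48, adjusted p = 6.49e-08, edgeR). Brms1, Mta2 and Rcor2 lie on chromosome 19, where the median log2 fold change of 424 tested genes was -0.34 and 65.1% were lower, while the medians of the other chromosomes lay between -0.07 and 0.06. None of Zfp217 and its 9 partners is on chromosome 19, and the part of this chromosome-wide shift in the values of Brms1 and Mta2 was not tested.

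Of 17 genes for other DNA-binding factors and adaptors that recruit CtBP or CoREST, 8 had enough reads for a test, and 4 of these were higher and 2 lower (75% called, against 71.1% of all genes). Klf3, a CtBP-binding repressor, rose from 95.8 ± 4.83 to 123 ± 2.49 CPM (log2 fold change 0.35, SE 0.05, adjusted p = 8.03e-06, edgeR, SD, n = 3 each). Mecom (EVI1) fell from 22.9 ± 2.02 to 16.8 ± 1.61 CPM (log2 fold change -0.45, adjusted p = 0.000185, edgeR) and Zeb2, a repressor of epithelial genes, from 3.21 ± 0.199 to 2.04 ± 0.357 CPM (log2 fold change -0.68, adjusted p = 0.00165, edgeR). Rest, Tgif1 and Nrip1 were higher by 0.23 to 0.26. Zfpm2, Gfi1b, Prdm16 and Insm1 had 0 reads in all libraries.

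A list of 10 genes that work on human ZNF217 has linked to it was read next, of which 8 were tested: 5 were higher, 1 lower and 2 not called (75% called, against 71.1% of all genes), at a median log2 fold change of 0.21. The largest difference was that of Cdh2 (N-cadherin, a cadherin of mesenchymal cells), at 6.89, 6.13 and 6.58 CPM in mock and 0.593, 0.409 and 0.734 CPM in p140Cap libraries. It fell by 3.50 in log2 units (SE 0.19, adjusted p = 1.28e-10, edgeR), with no overlap between the groups. The p140Cap values of Cdh2 rest on 9, 6 and 10 reads, and the alternative with a floor of 10 reads per library did not test it. Tgfb3, a TGF-beta ligand, rose from 217 ± 3.18 to 305 ± 14.4 CPM (log2 fold change 0.49, adjusted p = 1.19e-07, edgeR) and Vim, the intermediate filament vimentin, from 209 ± 11.2 to 266 ± 12 CPM (log2 fold change 0.35, adjusted p = 1.72e-05, edgeR, SD, n = 3 each). Cdh1 (E-cadherin), which ZNF217 has been described to repress, was 0.11 log2 units higher (adjusted p = 0.0471, edgeR). Cdh1 lost this call in 9 of 13 alternatives, among them the omission of any 1 library (adjusted p between 0.0531 and 0.186, edgeR), where 4 genes of the list were higher, and without p140Cap library 2 its log2 fold change was 0.069. Erbb3, described as a gene that ZNF217 activates, was 0.26 units higher (adjusted p = 0.000123, edgeR). Erbb2 and Snai1 did not pass the test, and Cdkn2b had 0 reads in all libraries.

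ZNF217 has also been tied to N6-methyladenosine (m6A), a mark on messenger RNA, by holding the methyltransferase METTL3. Of 15 genes for m6A writers, erasers and readers, 9 were lower, 2 higher and 4 not called (73.3% called, against 71.1% of all genes), with a median of -0.24. The 2 that rose, Fto (log2 fold change 0.35) and Alkbh5 (log2 fold change 0.22), encode demethylases that erase the mark. The other members encode writers or readers, of which 9 fell and 4 were not called, with log2 fold changes between -0.05 and 0.05. This division by role was made after the values were seen. Rbm15b, an adaptor of the writer complex, fell from 70.4 ± 1.16 to 42.2 ± 0.984 CPM (log2 fold change -0.74, SE 0.05, adjusted p = 1.85e-09, edgeR, SD, n = 3 each). The reader gene Ythdf2 fell from 36.7 ± 1.7 to 23.9 ± 0.691 CPM (log2 fold change -0.62, adjusted p = 1.83e-07, edgeR). Mettl14 and Mettl3, the core of the writer, fell by 0.42 (adjusted p = 8.83e-06, edgeR) and 0.36 (adjusted p = 0.00065, edgeR) on the log2 scale.

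Of 16 neuronal genes that REST and CoREST are known to silence outside neurons, 14 had too few reads for a test, and 7 of these had 0 reads in all libraries. The other 2 moved apart. L1cam, a cell adhesion gene, fell from 13.6 ± 0.668 to 2.98 ± 0.287 CPM (log2 fold change -2.20, adjusted p = 4.78e-11, edgeR), and Unc13a, a gene of synaptic vesicle release, rose from 28.9 ± 2.74 to 53.9 ± 5.26 CPM (log2 fold change 0.89, adjusted p = 2.59e-08, edgeR, SD, n = 3 each). Their median was -0.65. Without p140Cap library 1, 2 or 3, 3 genes of the list were tested, with medians of -0.29, -0.72 and -0.046. On leaving out a library, L1cam itself stayed between -2.28 and -2.15 and Unc13a between 0.82 and 0.97.

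**Figure D4:**
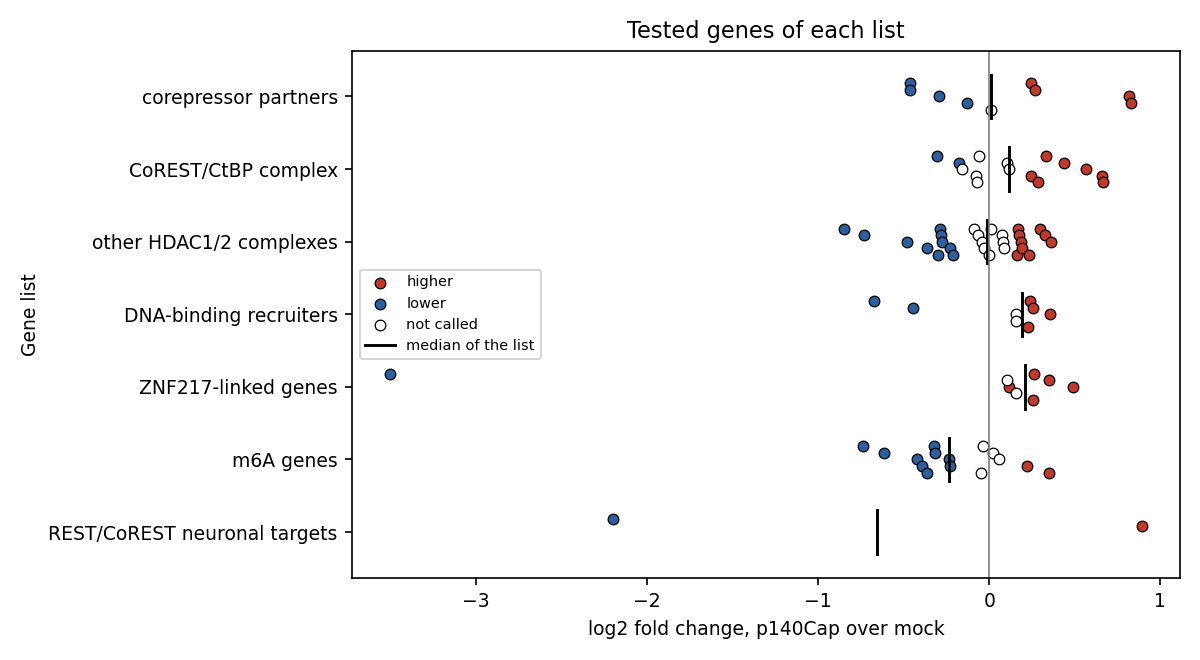
Log2 fold change, p140Cap over mock, of each tested gene (points) in the lists around Zfp217, with red for higher, blue for lower, white for not called and a line at the median of each list. Medians run from -0.65 for the 2 tested neuronal genes to 0.21 for the ZNF217-linked genes, against -0.00154 over all genes tested.

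Around Zfp217 on chromosome 2, the annotation holds 76 genes within 2 Mb, of which 16 were in the counts and 10 were tested. Of these 10, 4 were higher, 3 lower and 3 not called (70.0% called, against 71.1% of all genes), at a median of -0.16 in log2 fold change. Tshz2, the nearest annotated neighbour in the counts at 35.9 kb, had 0 reads in all libraries. Bcas1, at 192 kb, was at 0.601, 0.779 and 0.601 CPM in mock and 0.461, 0.409 and 0.220 CPM in p140Cap libraries (log2 fold change -0.82, adjusted p = 0.0566, edgeR). Cyp24a1 (vitamin D 24-hydroxylase) and Pfdn4 (a prefoldin subunit), at 331 and 345 kb, were lower, with log2 fold changes of -0.36 (adjusted p = 0.0349, edgeR) and -0.59. On the other side, Zfp64 was lower (-0.43) and Atp9a (0.36), Nfatc2 (0.82), Dpm1 (0.63) and Gm20716 (0.12, adjusted p = 0.0489, edgeR) were higher. Adnp (-0.02) and Mocs3 (-0.29, adjusted p = 0.0706, edgeR) did not pass the test, though Mocs3 passed it in 3 alternatives (adjusted p = 0.00837 without p140Cap library 2, 0.0389 without mock library 2 and 0.0132 without a filter, edgeR). Its log2 fold change was -0.48 without p140Cap library 2 and -0.18 without p140Cap library 1. Gm20716 spans Adnp and Dpm1, so reads there can be shared. The call of Gm20716 was lost in 11 of 13 alternatives and that of Cyp24a1 in 6. Without mock library 3 the log2 fold change of Gm20716 was 0.071 (adjusted p = 0.220, edgeR), and without p140Cap library 1 that of Cyp24a1 was -0.23 (adjusted p = 0.216, edgeR).

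**Figure D5:**
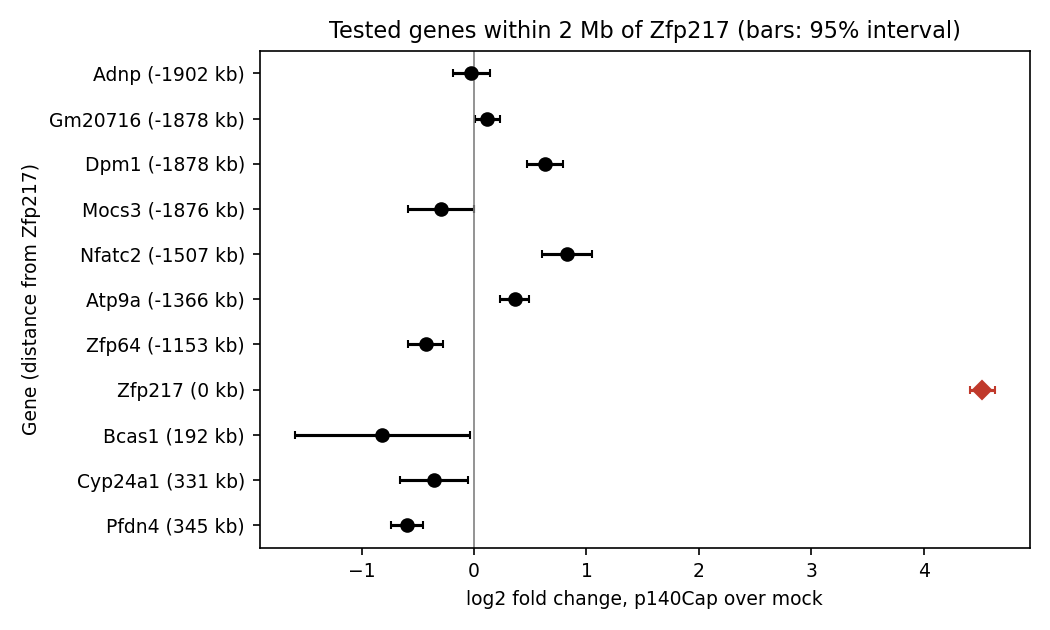
Log2 fold change with its 95% interval of the tested genes within 2 Mb of Zfp217 on chromosome 2, in order of distance from Zfp217 (kb, negative toward lower coordinates). Zfp217 stands at 4.52, and its neighbours between -0.82 and 0.82.

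Zfp217 was 1 of 324 tested genes with a numbered Zfp symbol. Of the other 323, 115 were higher, 72 lower and 136 not called (57.9% called, against 71.1% of all genes), at a median of 0.08 in log2 fold change, and 8 were at or above 1 and 8 at or below -1. Zfp879 had a larger log2 fold change (5.78), but on 2 reads over the mock libraries, and the next below Zfp217 were Zfp354c (2.79) and Zfp467 (1.49). By the distance between profiles of log2 CPM over the 6 libraries, each centred on its mock mean, the 5 genes most like Zfp217 were Tns4 (distance 0.238), Car9 (0.298), Rprml (0.459), Zfp879 (0.524) and Rab6b (0.659). Tns4, which encodes a tensin of focal adhesions, went from 1.58 ± 0.120 to 46.7 ± 4.63 CPM, and Car9, which encodes a carbonic anhydrase, from 9.10 ± 0.660 to 158 ± 8.83 CPM (SD, n = 3 each). Both started from a lower CPM than Zfp217, and Rprml and Zfp879 had reads in 1 mock library only.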

How the data were processed

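The authors deposited counts, that is, whole numbers of reads per gene for 21960 genes in 6 TuBo libraries (3 mock, 3 p140Cap), without normalization and with replicates kept apart. Libraries were stranded (TruSeq) and sequenced on a NextSeq instrument with samples and controls mixed per flow cell, and reads were processed with docker4seq. The submitters' processing notes name STAR 2.5, RSEM 0.1.1 and mm10, with no role or order, and whether the counts are rounded estimates is not stated. The paper's text names GRCm39.

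Counts were analysed in R 4.3.3 with edgeR 4.0.16: TMM factors, filterByExpr by group (11800 genes kept), the quasi-likelihood test with group as the one covariate, p-values adjusted by Benjamini-Hochberg, and calls at an adjusted p under 0.05. The SE of a log2 fold change was its size over the square root of F. The method was tested on simulated counts. The coefficient of biological variation was 4.57%, and the mean chi-square value of a pair of libraries of 1 group lay between 1.75 and 10.7, where sampling noise gives 1, so no library was a copy of another. The depth of each library limits precision for genes with few reads, more so in p140Cap cells.

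The members and lists were chosen with earlier results of these data known. Named genes are the 10 members, Srcin1, up to 3 called genes of largest change per list, the tested genes within 2 Mb of Zfp217 and the 5 nearest profiles. Other list genes were named after their values were seen. The values of 1 list gene that the rule names are not reported here. Positions and promoters are those of RefSeq for GRCm38.p6. Exon lengths, chromosomes and overlapping genes were looked up by Ensembl identifier in GENCODE for GRCm39 (98.6% matched), and shared transcript sequence was searched at 95% identity over a minimum of 300 aligned bases. Alternatives were DESeq2 1.42.0, RLE factors, no filter, a floor of 10 reads per library, limma-voom (limma 3.58.1), thinning to the smallest total, the replicate number as a block, and leaving out each library.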

Additional observations from a re-analysis of the deposited data

How the results depend on the processing

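Zfp217 kept a log2 fold change between 4.49 and 4.54 over its 13 alternatives. Of the partners, Kdm5b, Phf21a, Rcor1, Rcor3, Hdac1, Hdac2 and Ctbp1 kept their direction and call in all of theirs. Between 7 and 8 partners were called, and Ctbp2 lost its call in 6 alternatives, with adjusted p between 0.0657 and 0.184 by edgeR there (0.0657 after thinning, 0.0703 without mock library 1, 0.113 without mock library 3, 0.117 without p140Cap library 1 and 0.184 without p140Cap library 3), the cause of which was not tested. Over the alternatives, between 8 and 11 of the other CoREST and CtBP genes, 18 and 19 of those of other HDAC complexes, 6 and 7 of the recruiters, and 4 and 6 of the ZNF217-linked genes were called, and 11 m6A and 2 neuronal genes in each. The numbers tested changed too. Without a filter, 13 recruiters, 9 ZNF217-linked and 9 neuronal genes were tested, and 8716 of all 15860 genes tested were called. With the floor of 10 reads per library, Cdh2 was not tested. There, 4 of 7 ZNF217-linked genes were called, beside 8076 of all 11209. After thinning, 7915 of all 11476 genes tested were called. Values near 0 changed sign. Kdm1a was at -0.019 without a filter and between -0.013 and 0.042 on leaving out a library, and Adnp between -0.083 and 0.033. Rcor2 was at 0.047 after thinning. The Hdac2 to Hdac1 difference was 0.045 after thinning and between -0.063 and 0.056 on leaving out a library, and the Rcor3 to Rcor1 difference 0.050 and between -0.075 and 0.030. With the reads of Gm10093 added to Hdac1, an alternative chosen after seeing the data, the Hdac2 to Hdac1 difference was -0.03.

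Replicate numbers did not pair the libraries: deviations of same-numbered libraries correlated at between -0.11 and -0.03, and no library correlated best with its own number. With the replicate number as a block, 8034 genes were called in place of 8388, 7 of 9 partners passed the test, the block p of Ctbp2 was 0.0788 (edgeR), and the Ctbp2 to Ctbp1 difference was 0.16 (exact paired permutation p = 0.25, the smallest possible).

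Depth limits the rare genes: thinned to the smallest total, Bcas1 had too few reads for a test. With all libraries at full depth and the main filter, Bcas1 passed by limma-voom (adjusted p = 0.0473) and not by edgeR (adjusted p = 0.0566), and the cause was not tested.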
